A study of Mus musculus with 12 samples.

Results

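The NRF2, glutathione and pentose phosphate genes are 41 named genes of the cell's defence against oxidants, and their messenger RNA was compared over 4 mouse lung adenocarcinoma cell lines. The array platform has a probe set annotated to a single gene symbol for 38 of the 41, among 18193 genes with such a probe set. Prdx1 is covered by 5 probe sets shared with another gene, Prdx6 and G6pdx have 0 listed probe sets, and these 3 genes were not analysed here. The labels call KC1, KC2 and KC3 highly metastatic and KC4 poorly metastatic. All 4 were grown from primary lung tumours and have 3 arrays each, labelled as biological replicates, so 9 arrays stand against 3. All samples share the genotype K-rasLA1/+; Cdkn1a-/- on a 127s background, with a latent oncogenic allele that is switched on in scattered cells and with the cell-cycle inhibitor p21 lost, and all lines were cultured in serum-containing RPMI medium. No treatment and no age of the mice is given. The tumours were taken from 4 mice, and the labels do not tie a line to a mouse, so some lines may share one. The poorly metastatic class is a single line, so the class cannot be told apart from KC4 itself.

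NRF2, encoded by Nfe2l2, is a transcription factor that the adaptor protein KEAP1 holds in the cytoplasm and hands to a ubiquitin ligase. Oxidants and electrophiles modify KEAP1, NRF2 then escapes degradation, enters the nucleus and binds antioxidant response elements with small MAF proteins. Its targets make glutathione, recycle thioredoxin, conjugate and export electrophiles, and supply NADPH, partly through the pentose phosphate pathway. In lung adenocarcinoma, mutations that free NRF2 from KEAP1 are a known way in which tumours gain resistance to oxidants.

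The core of the antioxidant response element, TGACNNNGC, was searched on both strands of RefSeq promoter windows (GRCm38.p6, 250 bases before to 50 bases after each annotated start). Windows were listed for 34 of the 41 members. The letters occurred in at least 1 window of 12 of these 34 members (35.29%), against 13.99% of all genes in the table, and in 26.67% of the member windows, against 12.39% of all windows. The windows come from a C57BL/6J genome and a match is not a binding site. Gclm and Mgst1 are shown because they were lower in KC2 and KC3 than in KC4 and hold the letters. The 250 bases before their starts follow on the gene's strand, which is the plus strand for both, and the capitals mark the element, which reads TGACNNNGC on the opposite strand.
Gclm, chr3:122245307-122245556: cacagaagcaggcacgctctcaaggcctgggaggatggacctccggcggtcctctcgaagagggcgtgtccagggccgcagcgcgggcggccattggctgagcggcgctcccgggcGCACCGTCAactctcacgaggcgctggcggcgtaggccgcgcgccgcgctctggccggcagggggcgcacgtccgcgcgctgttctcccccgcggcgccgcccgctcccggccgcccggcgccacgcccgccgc
Mgst1, chr6:138140277-138140526: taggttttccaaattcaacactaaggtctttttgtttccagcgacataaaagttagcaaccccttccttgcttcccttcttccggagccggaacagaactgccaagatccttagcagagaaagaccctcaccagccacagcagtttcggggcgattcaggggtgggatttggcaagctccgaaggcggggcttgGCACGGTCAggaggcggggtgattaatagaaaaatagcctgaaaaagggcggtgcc

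A short stretch around the element is given for 4 members that hold the letters and were not called lower in the class comparison, each read so that the element runs TGACNNNGC and is in capitals.
Me1, chr9:86695902-86695930, minus strand: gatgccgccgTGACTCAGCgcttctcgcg
Txnrd1, chr10:82859104-82859132, minus strand: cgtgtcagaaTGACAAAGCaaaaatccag
Nfe2l2, chr2:75704885-75704913, minus strand: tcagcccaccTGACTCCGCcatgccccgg
Gstm5, chr3:107895802-107895830, plus strand: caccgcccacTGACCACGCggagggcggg
Of the 5 members that were lower in the highly metastatic lines, 4 had a listed window. The letters were in it for 2 of these 4, where 13.99% of all genes held them. Elements outside these short windows were not searched for, so a window without the letters does not mean a gene without the element.

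Signals are linear array intensities with every array scaled to the same trimmed mean. For tests, signals under 16 were raised to 16 and log2 values taken, so the lowest value is 4.00. A member was called when its limma adjusted p over all 18193 genes was under 0.05 and its log2 difference at least 1 in size. In the comparison of KC1, KC2 and KC3 with KC4, 5 of 38 members were lower and 1 was higher, where 2.57% of all genes were called lower and 2.87% higher. The members lower in the highly metastatic lines were Gclm, Gsta2, Nqo1, Hmox1 and Mgst1, and the higher one was Gstt2. The adjusted p alone was passed by 20 members that were lower and 3 that were higher (15.3% and 16.8% of all genes). Of the 38 member differences 29 lay below 0, as did 9769 of 18193 over all genes. The median difference over the members was -0.22 on the log2 scale, and over all genes it was -0.00088. Of 31 members among the brighter 50% of genes, 3 were called lower, where 2.43% of those genes were. In a fit with the line as a random block, 1 correlation between arrays of a line (0.559) was shared by all genes. Gclm and Gsta2 stayed called in it and Nqo1, Hmox1, Mgst1 and Gstt2 did not (limma adjusted p = 0.113, 0.141, 0.592 and 0.883, in that order). A gene's own spread between lines is not measured by that fit, and KC4 remains a single line.

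**Figure D1:**
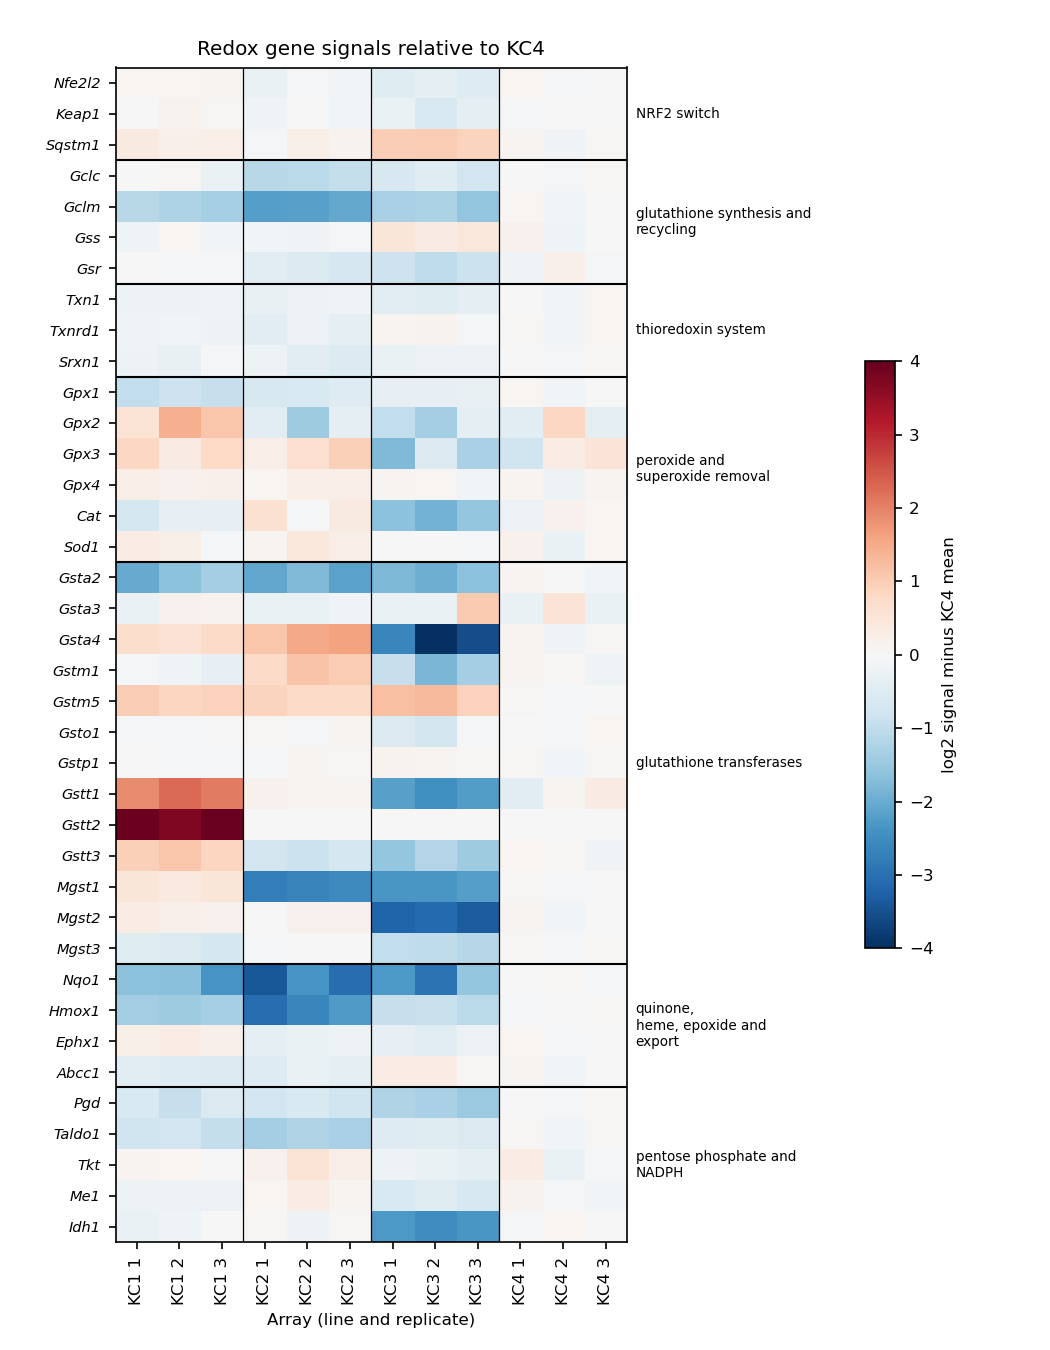
Heat map of log2 signal minus the KC4 mean of the same gene, for 38 genes (rows, grouped by role) on 12 arrays (columns, 3 per line); red is higher and blue lower than KC4, and the colour scale ends at 4 log2 units either way. Gclm, Gsta2, Nqo1 and Hmox1 are blue on all 9 arrays of KC1, KC2 and KC3, and the glutathione transferase rows are mostly blue in KC3.

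The 3 arrays of a line agreed closely for most members, with a median SD of 0.12 on the log2 scale, and the dim Gpx2 had the highest, 0.58. Across all genes, Spearman's rho was 0.980 to 0.983 within a line and 0.941 to 0.963 between lines. The control for the 5-prime part of 18S rRNA averaged 490 in KC1, KC2 and KC3 together, against 3305 in KC4, and that for the 3-prime part 550, against 868 in KC4. This ran along with every KC4 difference below, and its part in them was not tested. All 7 epithelial markers, such as Cdh1, Epcam and Krt8, had log2 means of 9.68 to 14.53. Of these 7, Cldn4 (1.54) and Elf3 (1.00) were called higher in the highly metastatic lines, and Cldn4, Elf3 and Epcam (1.10) in KC2 against KC4, so epithelial markers also moved with KC4. The 8 fibroblast markers stayed at log2 means of at most 7.59, with Pdgfrb at the floor on all arrays, and their summed signal was 490 to 510 in KC1, 556 to 627 in KC2, 435 to 670 in KC3 and 435 to 715 in KC4. The 7 leukocyte markers summed to 670 to 830 in KC1, 940 to 1060 in KC2 and 800 to 917 in KC3, against 707 to 782 in KC4, so that KC2 and KC3 lay above KC4 and KC1 overlapped it. The 5 endothelial markers summed to 319 to 528, 390 to 454 and 334 to 361 in KC1, KC2 and KC3, against 362 to 466 in KC4. Of the 7 alveolar and club cell markers, Napsa was at the floor on all arrays and Scgb1a1 and Nkx2-1 had log2 means of at most 5.41. Sftpd, a surfactant protein, had 484, 456 and 456 in KC1, 1305, 1358 and 1179 in KC2 and 112, 66.4 and 167 in KC3, against 132, 168 and 165 in KC4, and was called higher between the classes (1.37), in KC1 (1.59) and in KC2 (3.05). Nkx2-1 was called lower in KC1, at -1.23. The signals of the 7 summed to 868 to 990 in KC1, to 1569 to 1877 in KC2 and to 433 to 763 in KC3, against 609 to 878 in KC4. The part of any of these markers in the differences below was not tested. In such bulk RNA, fewer cells that express a gene and less RNA per cell cannot be told apart.

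Nfe2l2, Keap1 and Sqstm1 messenger RNA was called in no pair of lines, where 20.4% of all genes were called in at least 1 pair. Smaller differences passed the adjusted p alone, such as those of KC3 from KC4 for Nfe2l2 (-0.46) and Keap1 (-0.43) (limma adjusted p = 0.000312 and 0.00281). NRF2 and KEAP1 protein was not measured. Nfe2l2 had mean signals of 5322 ± 56.4, 4509 ± 304 and 3613 ± 182 in KC1, KC2 and KC3, against 4986 ± 286 in KC4 (SD, n = 3 each). KC3 was the lowest line and KC1 and KC4 overlapped. The difference of class was -0.17 (95% interval -0.28 to -0.06, limma adjusted p = 0.0263), under the minimum size. Keap1, which marks NRF2 for destruction, had 1175 ± 57.9, 1056 ± 50.4 and 839 ± 98.9 in KC1, KC2 and KC3, against 1127 ± 31.3 in KC4 (difference -0.16, interval -0.31 to -0.0044). Sqstm1 encodes p62, an autophagy receptor that can sequester KEAP1 and is also an NRF2 target. It reached 10621 ± 468 in KC3, with 6548 ± 369 in KC1 and 5834 ± 565 in KC2, against 5432 ± 523 in KC4. All 3 KC3 arrays of Sqstm1 lay above the other 9, and the KC3 difference from KC4 was 0.97 log2 units, just under the minimum size, and was called without KC3 replicate 3 or KC4 replicate 1.

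Glutathione is built by glutamate-cysteine ligase, whose catalytic subunit is Gclc and whose modifier subunit is Gclm, and then by glutathione synthetase, Gss. Gclm had signals of 1213, 1124 and 1051 in KC1, 576, 588 and 640 in KC2 and 1070, 1088 and 875 in KC3, against 2781, 2441 and 2672 in KC4. Every array of the highly metastatic lines lay below every KC4 array. The class difference was -1.58 (SE 0.078, 2.99-fold lower, limma adjusted p = 8.03e-07), and the second Gclm probe set gave -1.82. Gclc had 1097, 1131 and 909 in KC1, 502, 510 and 564 in KC2 and 690, 783 and 646 in KC3, against 1102, 1036 and 1126 in KC4. KC1 overlapped KC4, and KC2 was the lowest line, called at -1.05 (SE 0.098, limma adjusted p = 3.15e-05) against KC4. Gss, which adds the glycine, had 643 ± 56.3, 630 ± 19.6 and 905 ± 53.8 in KC1, KC2 and KC3, against 677 ± 79.2 in KC4, and was not called in any pair of lines. Gsr, the reductase that restores oxidised glutathione with NADPH, had 2819 ± 72.3, 1959 ± 157 and 1543 ± 106, against 2890 ± 361 in KC4. Its class difference of -0.50 passed the adjusted p (0.000938, limma) and not the minimum size.

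The thioredoxin system reduces protein disulfides and peroxiredoxins. The brightest probe sets of its 3 measured members were not called in any pair of lines, where 20.4% of all genes were called in at least 1 pair. Txn1, thioredoxin, had 16416 ± 96.2, 16035 ± 743 and 13863 ± 485 in KC1, KC2 and KC3, against 18756 ± 1209 in KC4 (difference -0.28, interval -0.38 to -0.19). A second, dimmer Txn1 probe set was called lower in KC1 (-1.07, limma adjusted p = 0.0303) and in KC2 (-1.05, limma adjusted p = 0.0237) than in KC4, so the Txn1 probe sets disagreed. Txnrd1, its reductase, stayed within 0.41 log2 units over the line means (difference of class -0.14). Srxn1, sulfiredoxin, which repairs over-oxidised peroxiredoxins, stayed within 0.39 (difference -0.27, interval -0.44 to -0.11). Both are NRF2 targets, and neither reached the minimum size in any line.

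Among enzymes that remove peroxide and superoxide, 0 of 6 were called between the classes, where 2.57% of all genes were lower and 2.87% higher. Gpx1, the cytosolic glutathione peroxidase, had 2785 ± 124, 3481 ± 139 and 4186 ± 67.3 in KC1, KC2 and KC3, against 5232 ± 357 in KC4. Each highly metastatic array was lower than each KC4 array, and the difference of -0.60 (SE 0.045, limma adjusted p = 1.01e-05) was under the minimum size. Gpx4, which reduces lipid peroxides in membranes and restrains ferroptosis, had a class difference of 0.15 (interval -0.035 to 0.33), and Sod1, the copper-zinc superoxide dismutase, of 0.14 (interval -0.099 to 0.38). Cat, catalase, had 1154, 1508 and 1500 in KC1, 2859, 1818 and 2383 in KC2 and 608, 505 and 645 in KC3, against 1585, 2117 and 1968 in KC4. KC3 lay under all other arrays, KC1 lay under KC2 and KC4, and KC2 and KC4 overlapped. KC3 was called at -1.69 against KC4 (SE 0.19, limma adjusted p = 0.000125). Gpx3, the secreted peroxidase, had 197, 139 and 189 in KC1, 132, 176 and 211 in KC2 and 32.0, 73.6 and 44.3 in KC3, against 63.1, 134 and 156 in KC4. KC3 and KC4 overlapped on the Gpx3 arrays, and the KC3 call (-1.22, limma adjusted p = 0.0423) was lost when any of 10 single arrays was left out. Gpx2, the epithelial peroxidase, was dim, with 62.0, 114 and 92.4 in KC1, 32.0, 14.5 and 33.1 in KC2 and 21.3, 16.5 and 32.3 in KC3, against 31.1, 76.3 and 32.4 in KC4. It was called between KC1 and KC2 (1.76) and between KC1 and KC3 (1.95), with 1 KC2 array at the floor, and the call between KC1 and KC2 was lost without KC1 replicate 2 or 3 or KC2 replicate 2.

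The glutathione transferases, which couple glutathione to electrophiles, held the widest differences between lines among the 38 members. Of 13 members, 2 were lower and 1 was higher between the classes, where 2.57% of all genes were lower and 2.87% higher. In KC3 against KC4 alone 8 were lower and 1 higher, where 4.7% and 3.52% of all genes were. Gsta2, an alpha-class transferase, had 41.2, 53.3 and 65.0 in KC1, 39.8, 49.2 and 37.7 in KC2 and 48.4, 43.1 and 53.5 in KC3, against 180, 169 and 155 in KC4. The KC4 arrays lay above all 9 others and the highly metastatic lines overlapped each other. The class difference was -1.83 (SE 0.14, 3.55-fold lower, limma adjusted p = 1.08e-05). Transferases of a class are similar in sequence, and how far their probe sets detect each other's RNA was not tested.

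Mgst1, a membrane-bound transferase of the endoplasmic reticulum and mitochondria, separated the lines in another way. It had 2895, 2712 and 2858 in KC1, 306, 322 and 354 in KC2 and 407, 414 and 449 in KC3, against 2146, 1995 and 2045 in KC4. KC1 lay above KC4, while KC2 and KC3 were 6.31-fold and 4.87-fold under it (-2.66 and -2.28, SE 0.062 each). The class difference of -1.50 (limma adjusted p = 8.04e-08) thus rested on KC2 and KC3, and was -0.92 without KC2, under the minimum size. A second Mgst1 probe set lay near the floor in all lines (log2 4.21 to 4.29) and showed no difference (-0.05).

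Gstt2, a theta-class transferase, was the member called higher in the highly metastatic lines, through KC1 alone. It had 242, 212 and 246 in KC1, while all arrays of KC2, KC3 and KC4 were under the floor, with signals of 3.49 to 7.03. KC1 was at least 14.5-fold above the floor, and the class difference was 0 when KC1 was left out. Gstt1, of the same class, had 324, 420 and 372 in KC1, 98.8, 93.7 and 94.8 in KC2 and 19.4, 14.3 and 18.8 in KC3, against 64.5, 94.0 and 110 in KC4. The order was KC1, then KC2 and KC4, which overlapped, then KC3, and the difference from KC4 was 2.08 (SE 0.18, limma adjusted p = 4.19e-05) in KC1 and -2.28 (SE 0.18, limma adjusted p = 1.46e-05) in KC3. The KC3 value was fitted with 1 array raised to the floor. Gstt3 had 633, 710 and 585 in KC1, 198, 180 and 200 in KC2 and 110, 143 and 121 in KC3, against 347, 336 and 297 in KC4, so its 4 lines did not overlap. It was called in KC3 at -1.39 from KC4 and in KC1 at 1.74 from KC2 and 2.37 from KC3.

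Gsta4, whose enzyme clears the lipid peroxidation product 4-hydroxynonenal, had the widest range of line means, 4.94 log2 units. It had 1706, 1561 and 1782 in KC1, 2247, 2978 and 3183 in KC2 and 172, 49.0 and 88.4 in KC3, against 1111, 948 and 1069 in KC4. The 4 lines did not overlap. KC2 was 1.41 above KC4 (SE 0.37, limma adjusted p = 0.0152), a call lost without KC2 replicate 3, and KC3 was -3.52 from KC4 (11.5-fold lower, limma adjusted p = 8.25e-05). Gstm1, a mu-class transferase, had 603, 568 and 506 in KC1, 1102, 1429 and 1290 in KC2 and 341, 183 and 251 in KC3, against 693, 667 and 573 in KC4. KC2 was the highest line and KC3 the lowest, called at -1.36 (limma adjusted p = 0.000728) against KC4, and KC1 and KC4 overlapped. Of the 4 Gstm1 probe sets, 3 were called lower in KC3 than in KC4 and 1 was not.

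Mgst2, a membrane enzyme that also makes the leukotriene LTC4, had 3412, 3151 and 3084 in KC1, 2817, 3113 and 3106 in KC2 and 298, 320 and 278 in KC3, against 2975, 2564 and 2758 in KC4. KC3 was 9.26-fold under KC4 (-3.21, SE 0.075, limma adjusted p = 1.22e-08). KC1 and KC2 differed from KC4 by less than the minimum size, so the Mgst2 class difference of -0.96 (-1.01 and called without KC4 replicate 2) came through a single line. Mgst3 had 2978, 2830 and 2560 in KC1, 3992, 4146 and 4157 in KC2 and 2075, 2064 and 1886 in KC3, against 4260, 3911 and 4271 in KC4, with KC3 the lowest at -1.05 from KC4. A second, dimmer Mgst3 probe set was called lower between the classes (-1.19, limma adjusted p = 0.022 over all probe sets). It was also called in KC3 (-2.48), where its log2 mean of 4.44 was near the floor. Gstm5 ran the other way, with 1182, 1077 and 1130 in KC1, 1110, 1018 and 1019 in KC2 and 1374, 1478 and 1148 in KC3, against 620, 568 and 613 in KC4. All 9 highly metastatic arrays of Gstm5 lay above KC4, by 0.95 log2 units (SE 0.073, limma adjusted p = 1.12e-05), just under the minimum size, and KC3 was called at 1.14. Gstp1, the pi-class transferase often prominent in tumours, held one level, with a class difference of 0.03 (interval -0.08 to 0.14). Gsto1, of the omega class, had a class difference of -0.16 (interval -0.42 to 0.11), and Gsta3 lay at or near the floor in all lines, with 7 of 12 arrays at it.

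**Figure D2:**
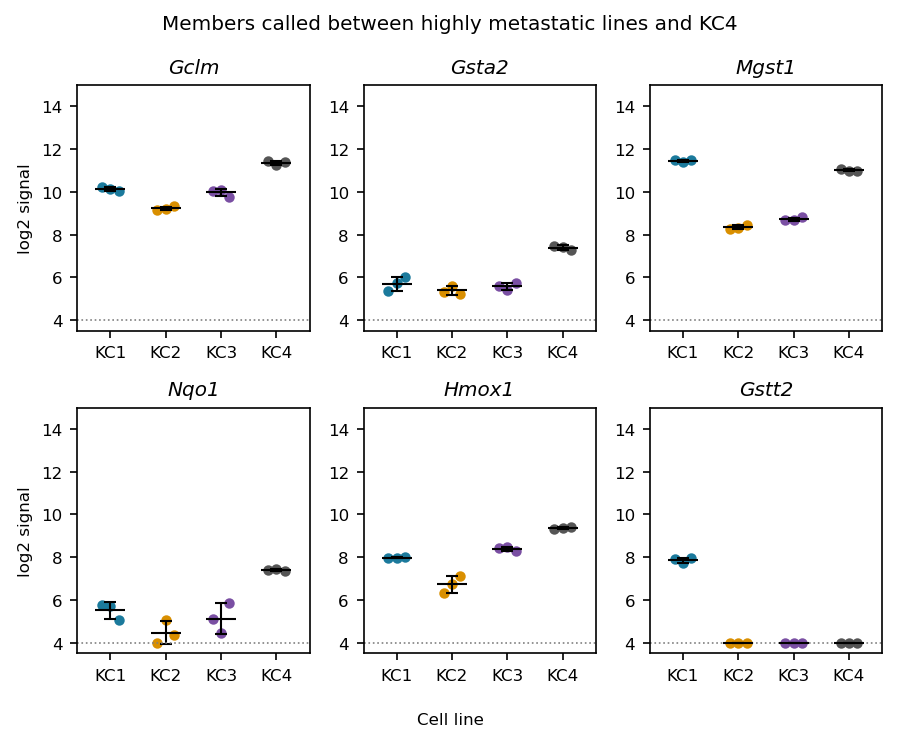
Log2 signals (vertical axis, with the floor of 4 as a dotted line) of the 6 members called between the highly metastatic lines and KC4, by cell line; points are single arrays, bars the mean and SD of 3. KC4 lies above the other lines for Gclm, Gsta2, Nqo1 and Hmox1, KC1 joins KC4 for Mgst1, and Gstt2 is above the floor in KC1 alone.

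Nqo1, the quinone reductase that is the standard readout of NRF2 activity, was dim in all lines. It had 54.5, 52.9 and 32.9 in KC1, 4.60, 33.0 and 20.3 in KC2 and 34.2, 21.7 and 58.1 in KC3, against 169, 176 and 161 in KC4. KC4 lay above all other arrays and KC1, KC2 and KC3 overlapped. The class difference was -2.36 (SE 0.31, limma adjusted p = 0.000346), fitted with 1 KC2 array raised to the floor. Hmox1, the heme oxygenase that is also released from repression by BACH1, had 251, 247 and 262 in KC1, 80.1, 108 and 138 in KC2 and 346, 355 and 313 in KC3, against 634, 657 and 681 in KC4. The 4 lines did not overlap, with KC2 the lowest. The class difference was -1.66 (SE 0.13, 3.15-fold lower, limma adjusted p = 1.43e-05), and KC2 was 6.19-fold under KC4.

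Ephx1, the microsomal epoxide hydrolase, and Abcc1, a pump that exports glutathione conjugates, were called in no pair of lines. Ephx1 had 1780 ± 56.7, 1239 ± 68.2 and 1192 ± 89.7 in KC1, KC2 and KC3, against 1499 ± 67.8 in KC4. For Abcc1 the values were 2954 ± 151, 3180 ± 275 and 4877 ± 474, against 4184 ± 291 in KC4. KC3 was the highest line for Abcc1 and among the lowest for Ephx1, so the order of lines differed between these genes.

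The pentose phosphate pathway yields NADPH at the steps of G6pdx and Pgd, and Taldo1 and Tkt recycle its sugars. Between the classes 0 of 5 measured members of this group and of other NADPH sources were called. Of all genes 2.57% were called lower and 2.87% higher. By the adjusted p alone 4 of these 5 members were lower, as were 15.3% of all genes. Pgd had 4899, 3966 and 5009 in KC1, 4471, 4991 and 4303 in KC2 and 3270, 3038 and 2714 in KC3, against 7463, 7307 and 7874 in KC4. All 9 arrays were under KC4 and the class difference was -0.92 (SE 0.085, limma adjusted p = 3.68e-05), while 2 of the 3 other Pgd probe sets passed the minimum size at -1.12 and -1.01. KC3 was called lower than KC4 at -1.33 (limma adjusted p = 1.22e-05), and likewise on each other Pgd probe set. Taldo1, transaldolase, had 2282, 2337 and 2029 in KC1, 1558, 1719 and 1629 in KC2 and 2800, 2820 and 2654 in KC3, against 4131, 3655 and 4121 in KC4. Its 4 lines did not overlap, the class difference was -0.88 (SE 0.057, limma adjusted p = 4.07e-06), and KC2 was called at -1.28. Tkt, transketolase, differed by 0.03 (interval -0.23 to 0.30) on its brightest probe set and by -0.50 and -1.06 on the others, so its probe sets disagreed. The last was called at a low signal (limma adjusted p = 0.0293 over all probe sets).

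Me1, the cytosolic malic enzyme, had 3302 ± 17.1, 4291 ± 338 and 2580 ± 131 in KC1, KC2 and KC3, against 3847 ± 331 in KC4, with a class difference of -0.21. Idh1, the cytosolic isocitrate dehydrogenase, had 3248, 3526 and 3940 in KC1, 4062, 3440 and 4063 in KC2 and 796, 701 and 777 in KC3, against 3804, 4126 and 3896 in KC4. KC1, KC2 and KC4 overlapped and KC3 stood alone, 5.21-fold under KC4 (-2.38, SE 0.091, limma adjusted p = 1.48e-07). A second Idh1 probe set was called between the classes (-1.05, limma adjusted p = 0.000978 over all probe sets) and was likewise lower in KC3, with log2 means of 9.10 in KC3, 11.72 in KC1 and 11.75 in KC2, against 11.90 in KC4.

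Set against KC4 one line at a time, the members moved to different extents, and the 3 comparisons share the KC4 arrays. In KC1, 2 members were higher and 4 lower than in KC4 (3.49% and 2.05% of all genes). In KC2, 1 was higher and 7 lower (5.02% and 4.46%). In KC3, 1 was higher and 14 lower (3.52% and 4.7%), and by the adjusted p alone 25 were lower, where 16% of all genes were. KC1, KC2 and KC3 had median member differences of -0.04, -0.12 and -0.55, and -0.0012, 0 and -0.016 over all genes. Among the brighter 50% of genes 10 of 31 members were called lower in KC3, with 4.85% of those genes. After centring the arrays on their medians, the KC3 comparison gave 2 members higher and 12 lower, Sqstm1 joining and Gpx3 and Mgst3 leaving. Over all genes it then gave 969 higher and 637 lower, and without the centring 641 higher and 855 lower.

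**Figure D3:**
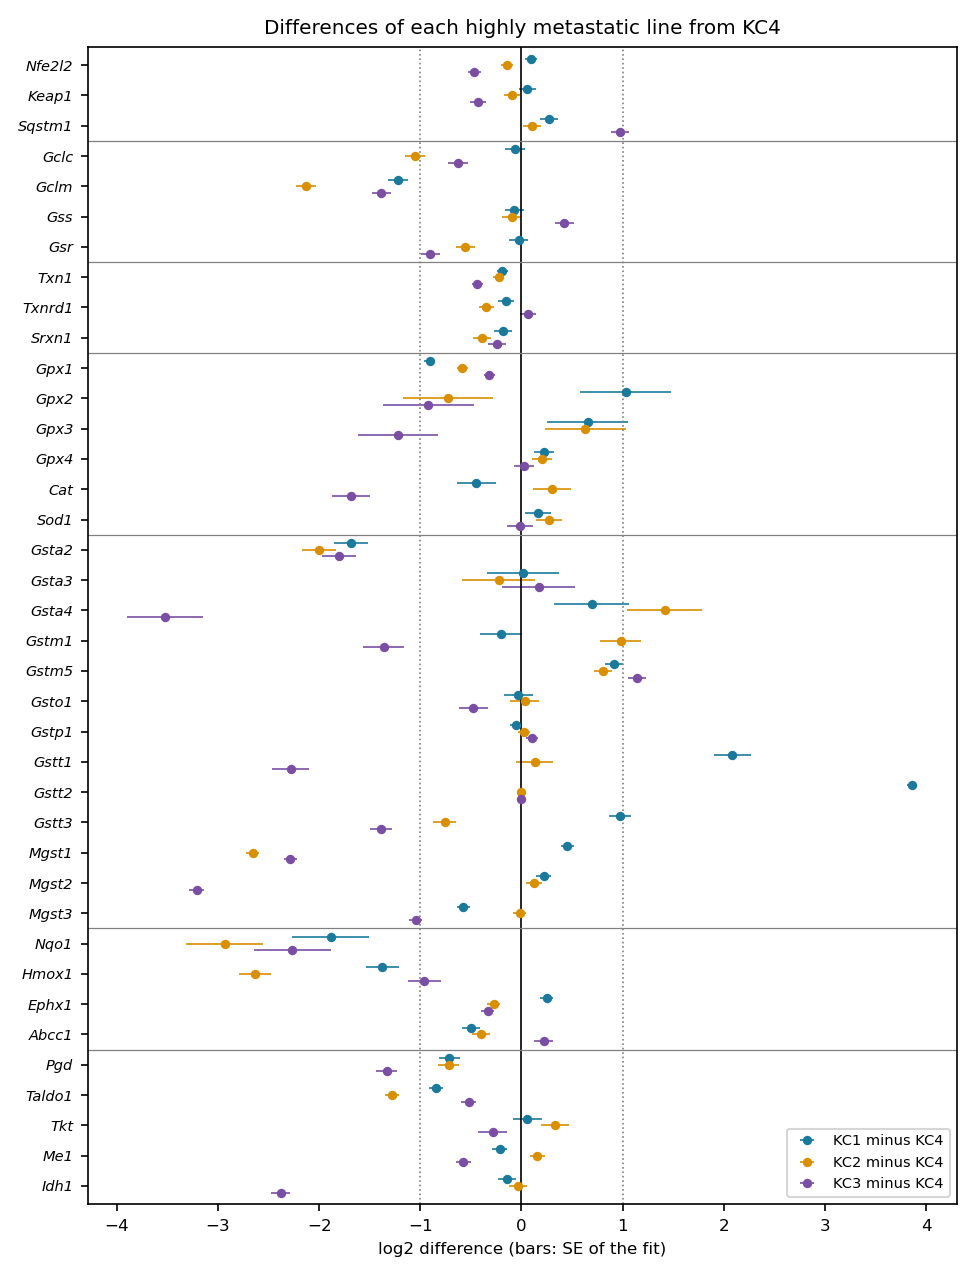
Log2 difference of KC1, KC2 and KC3 from KC4 (horizontal axis; bars are the SE of the fit) for 38 genes in order of role (vertical axis), with dotted lines at the minimum size of 1 either way. Gclm, Gsta2 and Nqo1 have all 3 lines left of -1, while Mgst2, Idh1, Cat and Gstm1 have KC3 alone there.

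A member that was higher, or lower, in one line than in all 3 others, with a call in each comparison, set that line apart. Such comparisons share arrays too. KC4 was set apart as higher by Gclm, Gsta2 and Nqo1, 3 of 38 members where 0.698% of all genes did so. All 3 kept this when any single array was left out. KC3 was set apart as lower by 7 members, Mgst2, Gsta4, Idh1, Gstt1, Cat, Gstm1 and Gpx3, where 1.54% of all genes did so. Without KC3 replicate 2 Gstm1 was no longer among them, and Gpx3 depended on single arrays as given above. KC1 was set apart as higher by Gstt1 and Gstt2 (0.72% of all genes), and KC2 as lower by Hmox1 (1.02%).

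**Figure D4:**
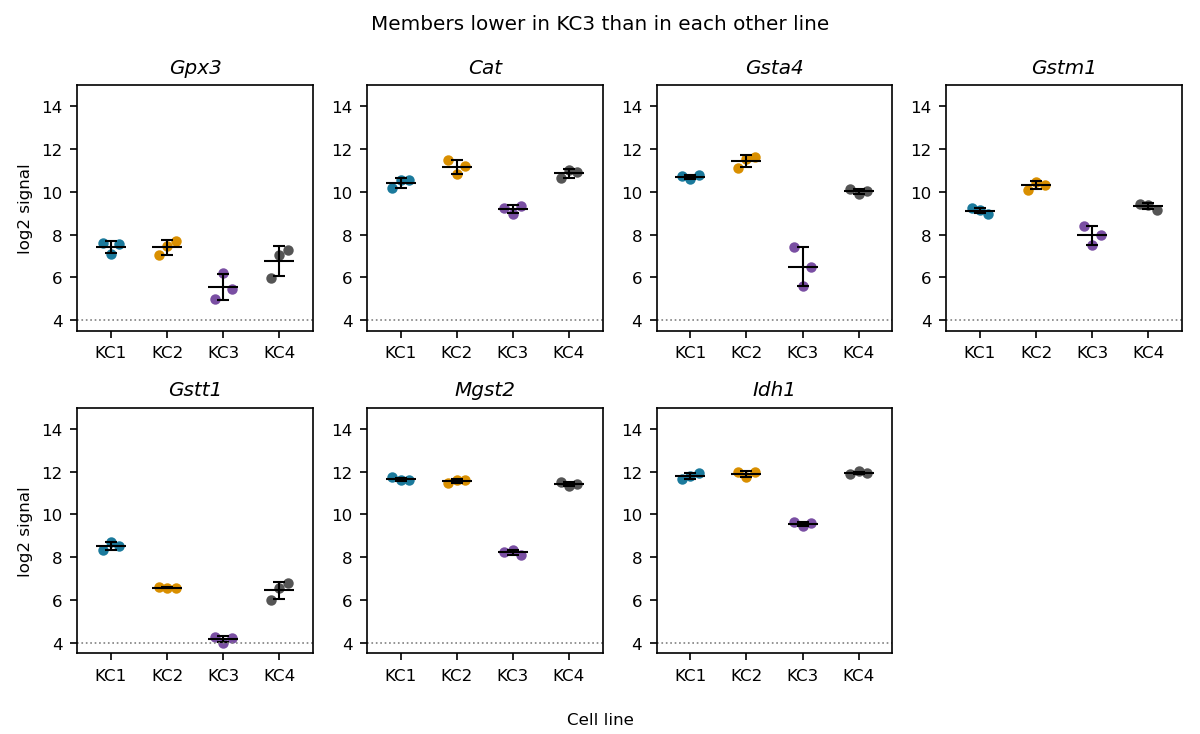
Log2 signals (vertical axis, floor of 4 dotted) by cell line of the 7 members that were lower in KC3 than in each other line; points are single arrays, bars the mean and SD of 3. The KC3 points lie under all others for Cat, Gsta4, Gstm1, Gstt1, Mgst2 and Idh1, and overlap KC4 for Gpx3.

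Lines of the highly metastatic class differed among themselves in these genes. Between KC1 and KC3, 11 members were higher in KC1 and 0 lower. Of all genes 8.21% were called either way there, 969 higher and 525 lower. Between KC2 and KC3, 8 members were higher in KC2 and 1, Hmox1, was lower (10.8% of all genes, 1073 higher and 899 lower). Between KC1 and KC2, 6 members were higher in KC1 and 1, Gstm1, was lower (5.01% of all genes, 563 higher and 348 lower). The call of Mgst3 between KC2 and KC3 was lost without KC3 replicate 3, and that of Gstm1 between KC1 and KC3 without KC3 replicate 2. Of the 38 members, 20 were called in at least 1 of the 6 pairs of lines, where 20.4% of all genes were, and 18 in none. Among those 20 members, KC4 was the highest line for 9, KC1 for 7, KC2 for 3 and KC3 for 1. KC3 was the lowest line for 11, KC2 for 8, KC4 for 1 and KC1 for 0. The same split was not counted over all genes, so whether it is particular to these members is not known.

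The other genes of the pathway were read in 5 further lists of 104 genes, 95 of them measured. Between the classes 4 of the 95 were higher and 8 lower, where 2.87% and 2.57% of all genes were, and the same shares stand beside the counts of each list below. Of 17 measured NRF2 regulators and partners, 0 passed both criteria. Bach1, a repressor of antioxidant response elements that was picked after its value was seen, was 0.99 log2 units higher (limma adjusted p = 4.01e-07), just under the minimum size. Of 19 other NRF2 target genes, 2 were higher and 4 lower. Aldh3a1, an aldehyde dehydrogenase, had 159, 154 and 146 in KC1, 133, 117 and 150 in KC2 and 94.0, 95.5 and 71.9 in KC3, against 1628, 1681 and 1635 in KC4 (difference -3.77, SE 0.096). Pir, the iron-binding protein pirin, had 417, 518 and 453 in KC1, 155, 144 and 163 in KC2 and 156, 108 and 160 in KC3, against 1317, 1315 and 1333 in KC4 (difference -2.62, SE 0.12). Both lay under KC4 on all 9 arrays.

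Slc7a11, the cystine importer that feeds glutathione synthesis, had 316, 299 and 288 in KC1, 121, 81.1 and 112 in KC2 and 546, 523 and 705 in KC3, against 673, 927 and 802 in KC4. KC3 overlapped KC4, and the class difference was -1.59 (SE 0.14, limma adjusted p = 3.43e-05). Abcc3, an exporter of organic anions and glucuronides, was higher, with 168, 153 and 154 in KC1, 2012, 2267 and 2345 in KC2 and 690, 476 and 412 in KC3, against 141, 122 and 90.8 in KC4. The class difference was 2.28, with KC2 at 4.25 and KC3 at 2.15 from KC4, and KC1 was not called.

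Of 17 measured thioredoxin, glutaredoxin and peroxide genes, 2 were higher and 0 lower. Txnip, which inhibits thioredoxin, had 7026, 7160 and 6164 in KC3, with 1237 to 1493 in KC1 and 1244 to 1282 in KC2, against 817 to 1004 in KC4. Its class difference of 1.29 came with a KC3 difference of 2.87. Glrx, a glutaredoxin, was 1.08 higher (SE 0.051). Of 22 genes of glutathione use and breakdown, 0 were higher and 2 lower. Gstk1, a mitochondrial and peroxisomal transferase, was at -1.83 (SE 0.18), with KC2 at -3.11 and KC3 at -2.10 from KC4 and KC1 not called (-0.29). The other was Chac1, which degrades glutathione, at -1.28 (SE 0.048). The Chac1 arrays gave 1794, 1861 and 1846 in KC1, 565, 509 and 486 in KC2 and 4596, 4990 and 4636 in KC3, against 4145, 3871 and 3988 in KC4, so that KC2 was low and KC3 was not. Of 20 further pentose phosphate and NADPH genes, 0 were higher and 2 lower, the mitochondrial folate enzymes Aldh1l2 (-1.54, SE 0.13) and Mthfd2 (-1.39, SE 0.089). For Aldh1l2, KC2 was at -2.45 and KC3 at -1.72 from KC4, and KC1 was not called (-0.45). Mthfd2 was low in KC2, at 606, 699 and 515, with 2875 to 3042 in KC1 and 4642 to 5152 in KC3, against 4813 to 5733 in KC4.

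**Figure D5:**
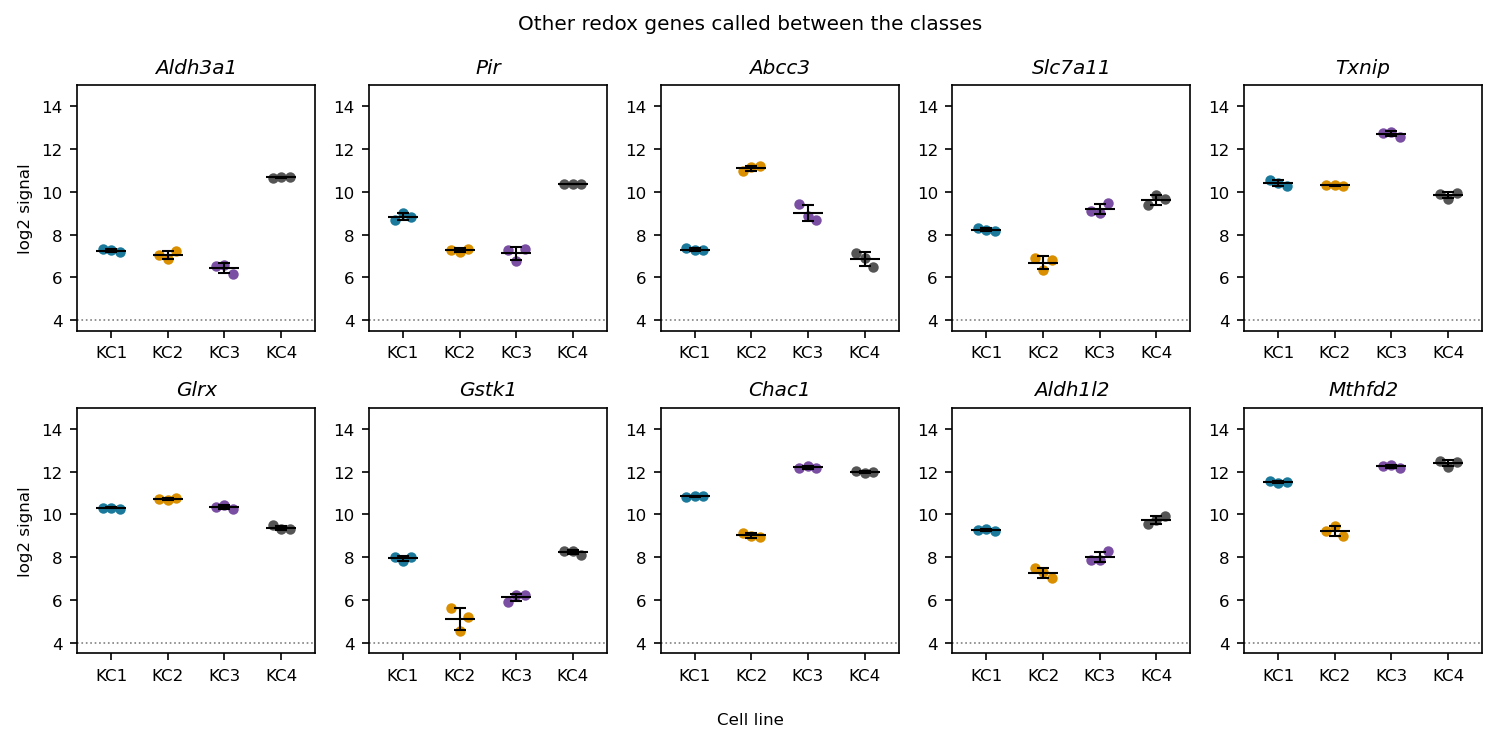
Log2 signals (vertical axis, floor of 4 dotted) by cell line of 10 further redox genes called between the classes; points are single arrays, bars the mean and SD of 3. Aldh3a1 and Pir are higher in KC4 than in every other line, Chac1, Mthfd2 and Slc7a11 are lowest in KC2, and Txnip is highest in KC3.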

How the data were processed

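RNA of 12 samples, 3 per line, was hybridised to 1-colour Affymetrix 3-prime arrays after biotin labelling, per the labels. The deposited table holds 1 linear intensity per probe set and array, and which software made it is not stated in the labels or the file. The mean after trimming 2% at each end was 500.002 to 500.003 on every array, so a change in total RNA per cell is not visible. Median signals were 94.5 to 128, and 15.3% to 20.0% of probe sets were at or under 16. Detection calls and scan batches were not used here. Array number limits the precision.

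Signals under 16 were set to 16 and log2 taken. Of 45037 probe sets without controls, 34945 had 1 symbol in the platform annotation, 932 several and 9160 were unlisted; 34741 matched RefSeq identifiers (GRCm38.p6). The brightest probe set by mean stood for each of 18193 genes. limma 3.58.1 (R 4.3.3; lmFit, eBayes, 1 coefficient per line, 12 arrays) gave 7 contrasts with Benjamini-Hochberg adjustment over all genes, after a check on simulated data. Every member is named; of each further list at most 4 called genes with the largest differences. The members and lists were chosen with earlier results of these data known. Whether the replicates are separate cultures is not stated, so p-values measure the spread between these samples. Alternatives covered scaling, floor, filter, probe sets, prior, minimum size, arrays, lines and blocks. Figures used matplotlib 3.10.9.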

Additional observations from a re-analysis of the deposited data

Results flagged for a closer look

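Gsta4 and Gstt1 were called in opposite directions against KC4 in different highly metastatic lines, so that their class differences (-0.47 and -0.02) hide larger ones. For Gsta4 the log2 level in KC2 minus that in KC3 was 4.94 (SE 0.37, limma adjusted p = 6.75e-06), with KC2 at 1.41 and KC3 at -3.52 from KC4. For Gstt1 the level in KC1 minus that in KC3 was 4.36 (SE 0.18, limma adjusted p = 3.09e-07), with KC1 at 2.08 and KC3 at -2.28 from KC4. Each of these genes has 1 single-gene probe set.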

How the results depend on the processing

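The minimum size of 1 log2 unit limits the calls to large line differences, and smaller ones passed the adjusted p alone. Each line has 3 arrays and the poorly metastatic class is a single line. Dim members such as Nqo1 and Gpx2 carry the widest errors. The calls of Gclm and Gsta2 were kept under every other scaling, floor, probe set rule, prior, block and left-out array or line. Gclm also kept its call among the brighter 50% of genes, while Gsta2 was not among those genes and was not tested there. Both were lost with a minimum difference of 2. With the line as a random block 2 members (Gclm and Gsta2) and 5 further genes were called between the classes. Over all 18193 genes that fit called 152 higher and 97 lower. Nqo1 (limma adjusted p = 0.113), Hmox1 (0.141), Mgst1 (0.592) and Gstt2 (0.883) were not called in it. Without line KC1 10 members were called and Gstt2 came to 0. Without line KC2 11 members were called. How many of all genes were called with a line left out was not counted. Without line KC3 Gsta4 (1.05) and Gstt1 (1.11) were called higher. The median member difference was -0.32 without line KC1, -0.27 without KC2, -0.051 without KC3, -0.19 with median centring, -0.27 in the brighter 50% of genes and -0.34 with the mean of probe sets. Testing only the brighter 50%, which leaves 31 members, gave 3 calls between the classes, 2 for KC1 against KC4, 4 for KC1 against KC2, 7 for KC1 against KC3, and 0 and 1 members that set KC1 and KC4 apart. The 3 class calls were lower, where 2.43% of the brighter genes were. Shares of the brighter genes were not counted for the other comparisons in that list. With the mean of probe sets 2 members set KC2 apart, and Mgst1 (-0.77) was not called. A floor of 64 took Gstt2 to 0.62.

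With no minimum difference the calls were 23 between the classes, 16, 19 and 28 for KC1, KC2 and KC3 against KC4, 17, 26 and 28 for KC1 against KC2, KC1 against KC3 and KC2 against KC3, 6, 6, 18 and 9 for members that set KC1 to KC4 apart, and 49 for the further lists. With a minimum of 2 they were 1, then 2, 4 and 6, then 2, 7 and 5, then 1, 0, 4 and 0, and 3. With no minimum, 3051 of all 18193 genes were called higher and 2783 lower between the classes. Against KC4 the counts over all genes were 2448 and 2227 in KC1, 3278 and 3192 in KC2, and 3240 and 2906 in KC3. For KC1 against KC2, KC1 against KC3 and KC2 against KC3 they were 2560 and 2242, 3028 and 3025, and 3474 and 3427. Genes that set a line apart with no minimum were not counted over all genes, so those member counts have no share beside them. For the minimum of 2, counts over all genes were not made. The dimmest Tkt probe set gave -1.06, against 0.03 on the brightest one. Median centring moved the median of all genes by -0.13 between KC1 and KC3, and the members were then 10 higher and 0 lower in KC1. Over all genes 716 were then higher and 914 lower in KC1. Between KC2 and KC3 the centring took the median member difference from 0.19 to -0.04. There 7 members were higher and 2 lower in KC2, with 739 of all genes higher and 1483 lower.

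Leaving out each array in turn gave 6 to 7 calls between the classes, 6 to 7, 7 to 9 and 14 to 16 for KC1, KC2 and KC3 against KC4, 6 to 8, 10 to 11 and 8 to 9 for the 3 pairs, 2 to 3, 1 to 2, 6 to 7 and 3 to 3 members that set KC1 to KC4 apart, 12 to 15 further genes, and a median difference of -0.27 to -0.22. Same-numbered arrays of different lines did not deviate together on average (correlations of -0.32 to 0.31, mean -0.01). A pairing common to all lines was thus not seen, and a pairing of only some lines was not tested. With the replicate block 6 members were called between the classes and 15 in KC3 against KC4. The block changed no call of a member between the classes.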
